A study of Drosophila melanogaster with 5 samples.

Results

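The array of hemocytes from a split ends (spen) loss-of-function line was set against the mean of the arrays from stocks of Enhancer of split, E(spl), and Suppressor of Hairless, Su(H), to describe how unlike it was to these other Notch-related stocks without use of the control strain. For each probe set the difference was the log2 level on the spen array minus the mean of the log2 levels on the E(spl) and Su(H) arrays. Manufacturer's control probe sets (183 of 18952) were left out, and a probe set was kept if any of the 3 levels reached 4.5. This kept 9997 of 18769 probe sets, of which 8600 belonged to 1 named gene, 275 to several genes and 1122 to none, and they covered 8088 named genes.

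Larval hemocytes of Drosophila melanogaster were taken in the third instar, the last larval stage, with 1 array per group. The spen line, spen(GE10359), carried a P-element in the UTR of spen. The stocks labelled as loss of function for E(spl) and for Su(H) were E(spl)rvl, BL199, and Su(H)l(417), BL417. The control was W1118, and the last stock, BL1564, was labelled as gain of function for EGFR. The labels do not give the zygosity of the larvae, any further alleles or balancers, or whether the stocks shared a genetic background, so that stock and mutation cannot be told apart. Each array pooled the hemocytes of 200 to 300 larvae, whose RNA (1.0 to 1.3 µg) went through an amplification step before labelling. There were no replicates, so no test could be made and no error between animals is known, and higher and lower describe these arrays.

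Spen is a large nuclear RNA-binding protein with a SPOC domain, a domain that binds other regulatory proteins, and its mammalian relatives act as corepressors of the DNA-binding factor that flies call Su(H). Su(H) carries the Notch signal to its target genes, and the basic helix-loop-helix repressors of the E(spl) complex are among those targets. In larval blood, Notch signalling is known for the making of crystal cells, which hold the prophenoloxidases of melanization. Plasmatocytes are the phagocytes that make up most of the blood, and lamellocytes, which are rare without a parasite or wound, wrap objects too big to engulf.

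Over all probe sets, array medians lay between 4.45 and 4.52. Background was read from probe sets for Bacillus genes, whose highest level was 4.78 on the spen array and 4.28 to 4.40 on the 4 others. On the spen array 14.7% of the 9997 probe sets lay at or below that level, against 4.44% for E(spl) and 2.72% for Su(H). These shares rest on the brightest Bacillus probe set of each array. The Bacillus medians were close, at 3.28 on spen, 3.23 on E(spl) and 3.17 on Su(H). A measure of RNA quality, the gap between 3' and middle probe sets, moved with the comparison. The 3' probe sets of actin, eIF-4a and GAPDH exceeded the middle ones by a mean of 1.69 on spen, 2.10 on E(spl) and 2.51 on Su(H), with 1.53 on the control and 1.84 on EGFR. By this gap spen was close to E(spl) for GAPDH (2.15 and 2.22). It was further off for actin (1.03 and 1.90) and eIF-4a (1.88 and 2.20). The mean gap between 3' and 5' probe sets did not set spen apart. Its value for spen, 7.56, lay between those of E(spl), 7.48, and Su(H), 8.1. The part of RNA quality in the differences below was not tested. As in any pooled sample, fewer cells of a type and less RNA per cell cannot be told apart.

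The spen array was more unlike the E(spl) and Su(H) arrays than these were unlike each other. E(spl) and Su(H) differed by at least 2-fold at 664 probe sets (6.64%), whereas spen differed from E(spl) at 1723 (17.2%) and from Su(H) at 1730 (17.3%). Levels over the 9997 probe sets correlated with r = 0.97 between E(spl) and Su(H), and with r = 0.93 between spen and either of them. These are correlations across probe sets, which share their 2 arrays and are not replicates. The EGFR array also lay nearer to both Notch stocks than the spen array did, with 1191 probe sets past 2-fold from E(spl) and 1073 from Su(H). From spen, 1839 probe sets of the EGFR array and 1385 of the control array lay past 2-fold. The control array was also far from both Notch stocks, with 1810 probe sets past 2-fold from E(spl) (18.1%) and 1869 from Su(H) (18.7%). Such a distance was thus not particular to spen.

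Against the mean of both Notch arrays, 681 probe sets (6.81%) were higher on the spen array by at least 2-fold and 937 (9.37%) were lower. A stricter count asked for 2-fold against each Notch array in the same direction, so that 1 reference array could not make the difference alone. By it, 501 probe sets (5.01%) were higher and 657 (6.57%) lower, 1158 in all. In named genes, each taken as the mean of its probe sets, 565 were higher against the mean (6.99%) and 754 lower (9.32%) of 8088. These shares are the background of the list counts below, and a short list with few or no such genes lies near them. The same strict count with E(spl) as the odd array of the 3 gave 264 probe sets (2.64%), 154 of them higher. With Su(H) as the odd array it gave 309 (3.09%), 234 of them higher. The 3 counts come from the same 3 arrays and are not independent.

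**Figure D1:**
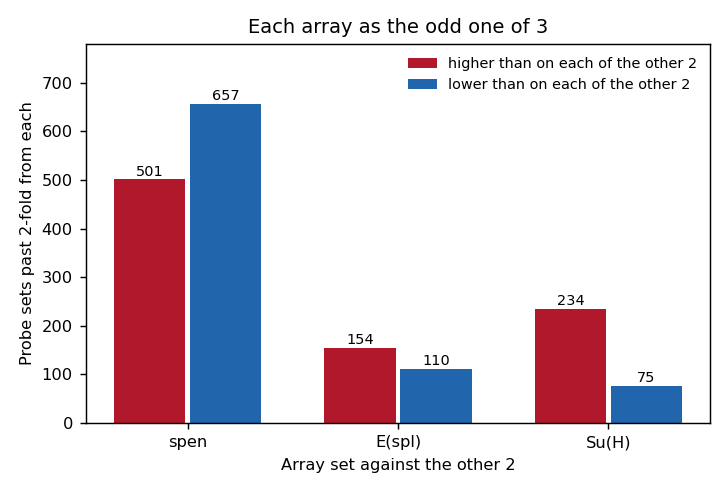
Number of probe sets (of 9997) at least 2-fold higher (red) or lower (blue) on 1 array than on each of the other 2, with spen, E(spl) and Su(H) in turn as the array set against the others. The spen bars (501 and 657) stand above those of E(spl) (154 and 110) and Su(H) (234 and 75).

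The excess held at larger folds. Past 4-fold from both other arrays lay 301 probe sets on spen, 52 on E(spl) and 75 on Su(H). For 16-fold the counts were 30, 6 and 6, and at 32-fold they were 13, 1 and 3. The differences had an SD over probe sets of 0.91 with spen as the odd array, 0.64 with E(spl) and 0.63 with Su(H), and the median for spen was 0.02. With the probe sets in 5 groups of equal size by mean level, the strict count took 4.5% of the dimmest group, then 14.8%, 16.5% and 12.2%, and 10% of the brightest. At the edge of the level filter, the 309 probe sets whose highest level was within 0.1 above it had differences from −1.09 to 1.43 with a median of 0.02. The 363 within 0.1 below it ran from −0.85 to 1.00 with a median of 0.03.

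**Figure D2:**
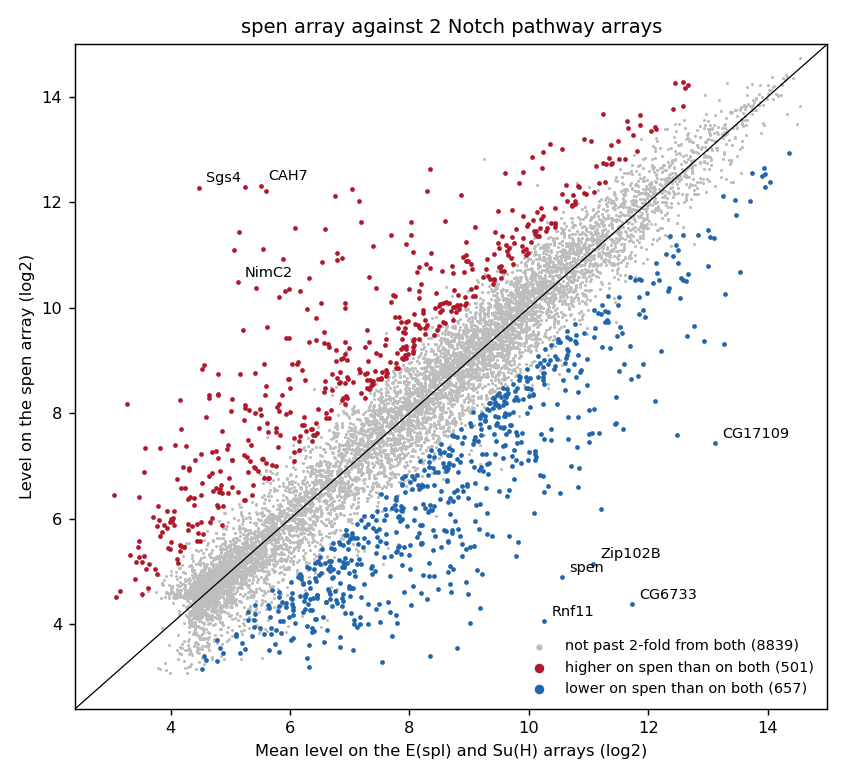
Level on the spen array (vertical, log2) against the mean level on the E(spl) and Su(H) arrays (horizontal, log2) for 9997 probe sets, 1 point each, with the line of equality. Red points (501) were at least 2-fold higher on spen than on both arrays and blue points (657) at least 2-fold lower; Sgs4, CAH7 and NimC2 lie far above the line and CG6733, Rnf11, Zip102B and spen far below it.

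The mutated gene itself was read first as a check of the label. spen stood at 4.90 on the spen array, close to the highest Bacillus control, and at 10.35 for E(spl) and 10.75 for Su(H). It was 50.4-fold lower on its own array, and it stood at 9.79 on the control and 9.14 on EGFR. The other spen probe set lay between 2.98 and 3.24 on all 5 arrays, which is background, and says nothing of the label. The genes Su(H) and E(spl)m8-HLH have no named probe set in the annotation used, so the labels of those stocks were not checked on them.

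Among genes that act with Spen-family proteins or with N6-methyladenosine, an RNA mark whose writer complex holds the small Spen-family protein nito, spen alone passed 2-fold. Of 10 genes kept, the other 9 lay between −0.28 and 0.58. With 6.99% of all named genes higher and 9.32% lower, a list of 10 would hold few past 2-fold. Ythdc1, the nuclear reader of the mark, stood at 8.74 on spen, 8.27 on E(spl) and 8.05 on Su(H). Sxl, the sex-determining splicing factor, was at 9.34, 9.56 and 9.66. The pair of nito probe sets went opposite ways, with −0.82 and 0.79, so no direction can be read for it.

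The highest genes on the spen array were led by salivary glue proteins, the secretions with which larvae fix themselves before pupation. Sgs4 stood at 12.28 on spen, 4.04 on E(spl) and 4.90 on Su(H), which made it at least 202-fold higher. Sgs7 stood at 11.44, 5.12 and 5.17 (78.0-fold), and Sgs5 at 11.51, 5.77 and 6.40 (42.8-fold). Sgs3 stood at 12.13 on spen, but it split the references with 5.16 on E(spl) and 8.36 on Su(H). These 4 genes lay between 11.44 and 12.28 on the spen array, and their levels on both Notch arrays lay between 4.04 and 8.36. Eig71Ee, an ecdysone-induced gene of the Eig71E cluster, stood at 12.22, 5.17 and 6.04 (98.0-fold).

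Other genes at the top were not glue genes. santa-maria encodes a class B scavenger receptor for carotenoids, and it stood at 12.30 on spen, 5.12 on E(spl) and 5.38 on Su(H), 132-fold higher. CAH7, a carbonic anhydrase, stood at 12.31, 5.07 and 5.98 (111-fold). dmGlut, a glutamate transporter, stood at 12.26, 7.09 and 6.995 (37.2-fold). Unlike the glue genes, these 3 were high on the control array as well, with 10.81, 11.31 and 10.53, and lower on EGFR, with 5.57, 4.48 and 7.56. Pgant8, an enzyme that starts O-linked sugar chains on mucins, stood at 10.92 on spen against 5.48 and 6.28 (32.8-fold). CG12310 was 65.2-fold, CG34296 29.8-fold and CG5568 at least 14.7-fold higher. A fold is written as at least where the dimmer side, or 1 of its arrays, lay at or below the Bacillus level of that array, which was then put in its place.

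At the low end, CG6733 stood at 4.38 on spen, at background, whereas E(spl) had 11.92 and Su(H) 11.54, at least 123-fold lower. Zip102B, a zinc transporter, stood at 5.15 on spen, 11.37 on E(spl) and 10.77 on Su(H) (60.4-fold). For Rnf11, a RING finger protein, the levels were 4.06, 8.89 and 11.62, at least 44.3-fold lower, with −1.97 at its other probe set. Zip102B and Rnf11 were also low on the control array, at 5.35 and 4.21, and high on EGFR, at 10.41 and 11.61. CG17109, a crystal cell gene, went another way: it stood at 7.44 on spen and between 11.90 and 13.32 on all 4 other arrays (51.3-fold lower than the Notch mean).

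Further low genes were enzymes and transporters. pyd3, which breaks down pyrimidines, stood at 4.57 on spen, 8.66 on E(spl) and 9.30 on Su(H) (lower by at least 18.4-fold). nrv3, a subunit of the sodium pump, stood at 5.55, 10.39 and 9.25 (19.3-fold). The cytochromes P450 Cyp12a4 and Cyp6w1 were lower by at least 18.8-fold and by 19.2-fold. These 4 genes were lower on spen than on the control and EGFR arrays too. Others of the lowest 15 were CG30283 (32.4-fold), CG6034 (29.3-fold), plum (at least 21.0-fold) and alpha-Man-IIb, a Golgi mannosidase (at least 6.78-fold). The remaining genes, ninaD and Jon99Fi, owed their size mostly to 1 reference array. ninaD, another carotenoid scavenger receptor, stood at 3.55 on spen, 12.06 on E(spl) and 5.54 on Su(H). Jon99Fi, a digestive protease, stood at 3.40, 5.57 and 11.11.

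**Figure D3:**
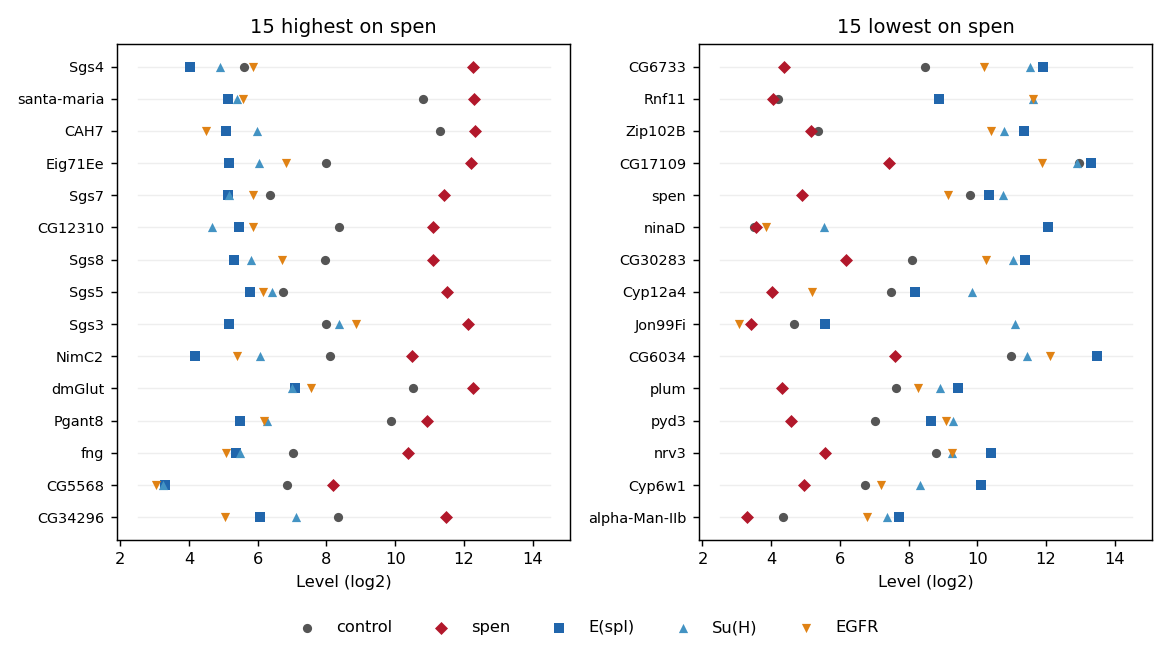
Log2 levels (horizontal) on all 5 arrays for the 15 genes with the largest positive (left) and the 15 with the largest negative difference (right) among those past 2-fold from both Notch arrays; each symbol is 1 array. Red diamonds (spen) lie at the right end in the left panel and at or near the left end in the right panel, while the control (grey) lies near spen for santa-maria, CAH7, Rnf11 and Zip102B and near the Notch stocks (blue) for CG17109 and spen.

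In the machinery of Notch signalling, of 13 genes for ligands, processing and modifiers, 2 were higher and 2 lower, where 6.99% of all named genes were higher and 9.32% lower. The median was −0.20 beside 0.02 over all named genes, and 0.03 with E(spl) as the only reference. The largest difference was that of fng, the glycosyltransferase that changes which ligands Notch answers to, at 10.37 on spen, 5.38 on E(spl) and 5.47 on Su(H) (30.8-fold higher). It was also well above the control (7.03) and EGFR (5.07) arrays. bib, a membrane protein of the neurogenic group, stood at 8.34 on spen, 4.16 on E(spl) and 5.14 on Su(H), with 8.49 on the control.

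Lower on spen were a pair of genes that act against Notch. numb, which inhibits the receptor, stood at 6.16 on spen, 8.25 on E(spl) and 7.10 on Su(H), past 2-fold from E(spl) but not from Su(H). Nedd4, a ubiquitin ligase for the receptor, stood at 8.15, 9.69 and 9.44, past 2-fold from both. Psn and pen-2, subunits of the protease that releases the Notch intracellular domain, differed by 0.90 and 0.88, and kuz, which makes the cut before it, by −0.21. The remaining genes of the list (neur, Su(dx), O-fut1, dx, lqf and rumi) lay between −0.68 and 0.40.

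None of 9 genes for the Su(H) transcription complex and its corepressors passed 2-fold, and their median was −0.04. With 6.99% of all named genes higher and 9.32% lower, a list of 9 would hold few such genes. H (Hairless), the adaptor that brings corepressors to Su(H), stood at 7.74 on spen, 8.64 on E(spl) and 8.39 on Su(H), a difference of −0.78. gro, one of those corepressors, was at −0.55, CtBP, another, at −0.09, and mam, the coactivator, at 0.11. Smr, the relative of the mammalian corepressors that bind Spen's relatives, was at −0.04, and ham was lowest at −0.99.

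Of the Notch target genes only 8 of 17 on the array passed the level filter. Of these 8, 3 were lower on spen, beside 9.32% of all named genes. E(spl)mbeta-HLH, which stood at 9.22 on spen, 10.24 on E(spl) and 10.30 on Su(H), differed by −1.05. E(spl)m3-HLH stood at 6.16, 7.76 and 8.92 (−2.18). lz, the Runx factor of crystal cells, was at background on spen with 3.19 and stood at 6.90 on E(spl) and 5.72 on Su(H) (lower by at least 2.88-fold). The references are themselves labelled as mutants of this pathway, and on the control array the same 3 genes stood at 9.88, 7.24 and 3.89. The other 5 (ct, her, E(spl)malpha-BFM, Tom and E(spl)m7-HLH) lay between −0.73 and 0.13. With the 9 dim genes included, the median of the list moved from −0.72 to −0.03.

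Crystal cell markers were lower on the spen array. Of 10, 7 passed 2-fold against both Notch arrays, beside 525 of 8088 named genes lower in that way. All 10 differences were negative, and the list median was −1.54. Besides CG17109 and lz, peb, a zinc finger factor, stood at 5.78 on spen, 8.69 on E(spl) and 8.53 on Su(H) (−2.83). CG10469 stood at 10.53, 12.66 and 12.49, and Men, malic enzyme, at 12.28, 13.90 and 14.001. CG7860 and CG10467 differed by −1.42 and −1.41. The prophenoloxidases, whose levels lie at the upper end of the scale, differed less, with PPO2 at −0.99 and PPO1 at −0.70. fok stood at 7.60, 8.35 and 8.15 (−0.65). The list was between its spen and its Notch level on the control array, with a median of −0.76 for spen minus control and 0.41 for the Notch mean minus control. lz, peb, CG7860 and, by a small margin, fok made an exception, being nearer to spen on the control array. CG7860 stood at 12.02 there, below its 12.54 on spen.

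Of 13 plasmatocyte markers 11 stayed within 2-fold and 2 were lower, beside 9.32% of all named genes. Of the 13 differences 9 were negative, and the median was −0.57, beside 0.02 over all named genes. Hml, a clotting protein, stood at 13.68 on spen, 14.29 on E(spl) and 14.36 on Su(H). eater and NimC1, receptors for bacteria, were both at −0.57. srp, the GATA factor of blood cells, was at 0.32, Pvr, the receptor for PDGF- and VEGF-like ligands, at 0.76, and crq, a scavenger receptor for dying cells, at 0.64. The exceptions were Nplp2 and Ppn. Nplp2, a peptide precursor abundant in hemocytes, stood at 9.31 on spen, 13.30 on E(spl) and 13.22 on Su(H), 15.4-fold lower. Ppn, a matrix protein, stood at 12.38, 14.10 and 13.997 (3.18-fold lower). The list stood high on all 5 arrays, with mean levels of 12.0 to 12.7, as the label of hemocytes would have it.

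Lamellocyte markers had 7 of 13 lower on spen, beside 9.32% of all named genes, and a median of −1.85. This value depended on the reference array, with −0.87 against E(spl) alone and −2.39 against Su(H) alone. atilla, a surface protein of these cells, stood at 6.58 on spen, 8.23 on E(spl) and 10.34 on Su(H). Drip, an aquaporin, stood at 5.88, 8.07 and 8.27, and ItgaPS5, an integrin subunit, at 6.10, 9.23 and 9.38. ItgaPS4 split the references, with 8.48 on spen, 9.35 on E(spl) and 11.31 on Su(H), and so did mdu, with 7.05, 7.93 and 10.43. CG15347 differed by −1.95 and shot, a cytoskeletal linker found in many cells, by −3.19. PPO3, the prophenoloxidase of lamellocytes, stood at 8.96, 9.24 and 8.89 (−0.10), and mys (−0.15), rhea (−0.40) and cher (−0.51) also stayed within 2-fold. The other 2 markers were above 0: betaTub60D, a tubulin, stood at 13.49 on spen, 11.57 on E(spl) and 13.44 on Su(H) (0.98), and msn, a kinase, differed by 0.61. The spen array was close to the control in this list, with a median of 0.19, while the Notch mean lay 1.78 above the control. Of progenitor and niche markers of the lymph gland, the larval blood organ, 4 of 7 were kept and none passed 2-fold. At the shares of all named genes a list of 4 would hold few or none.

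Uptake receptors included some of the widest differences in either direction. Among 19 Nimrod and scavenger receptor genes, 3 were higher and 3 lower, beside 6.99% and 9.32% of all named genes. The other 13 were within 2-fold, and the median was −0.20. Besides santa-maria, NimC2 stood at 10.48 on spen, 4.18 on E(spl) and 6.07 on Su(H), which made it at least 38.8-fold higher. NimC4, the receptor that takes up dying cells, stood at 8.74, 4.48 and 5.10, a difference of 3.95. On the low side, besides ninaD, Sr-CIV stood at 6.96, 11.62 and 10.06 (−3.88), and Sr-CIII at 5.48, 9.96 and 8.20 (−3.60). The class C receptor Sr-CI of plasmatocytes, at 12.31, 13.04 and 13.19, did not pass 2-fold.

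Genes of DNA replication and mitosis were lower on the spen array as a group. Of 27 replication genes, 16 were lower by 2-fold, beside 9.32% of all named genes, and 1 was higher. All 16 were lower against both Notch arrays. The median was −1.39, and 26 of 27 differences were negative. dup, which loads the replicative helicase, stood at 6.97 on spen, 9.13 on E(spl) and 9.28 on Su(H). Mcm5, a helicase subunit, stood at 7.23, 9.54 and 9.33, and RnrL, the large subunit of ribonucleotide reductase, at 9.52, 11.62 and 11.51. PCNA, the sliding clamp, differed by −1.77 and CycE, the S-phase cyclin, by −1.62. The single higher gene was Psf1, of the GINS complex, at 7.71, 6.30 and 6.42.

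Of 35 genes of mitosis and cytokinesis, 21 were lower, beside 9.32% of all named genes, and none was higher. Of the 21, 18 were lower against both Notch arrays, and the list median was −1.24. CycB, a mitotic cyclin, stood at 7.62 on spen, 11.09 on E(spl) and 11.01 on Su(H) (−3.43). Next came the kinetochore motor cmet, which stood at 6.82, 10.30 and 10.16, and the kinesin Klp67A at 6.82, 10.06 and 10.31. Genes of the cleavage furrow followed, with tum at −2.98, scra (anillin) at −2.73 and feo at −2.38. Bub1, a checkpoint kinase, stood on the other side at 0.92. The control array lay between for both lists: the spen medians against the control were −0.36 and −0.58, and those of the Notch mean 0.83 and 0.73. Against the EGFR array the spen medians were −1.44 and −1.18.

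**Figure D4:**
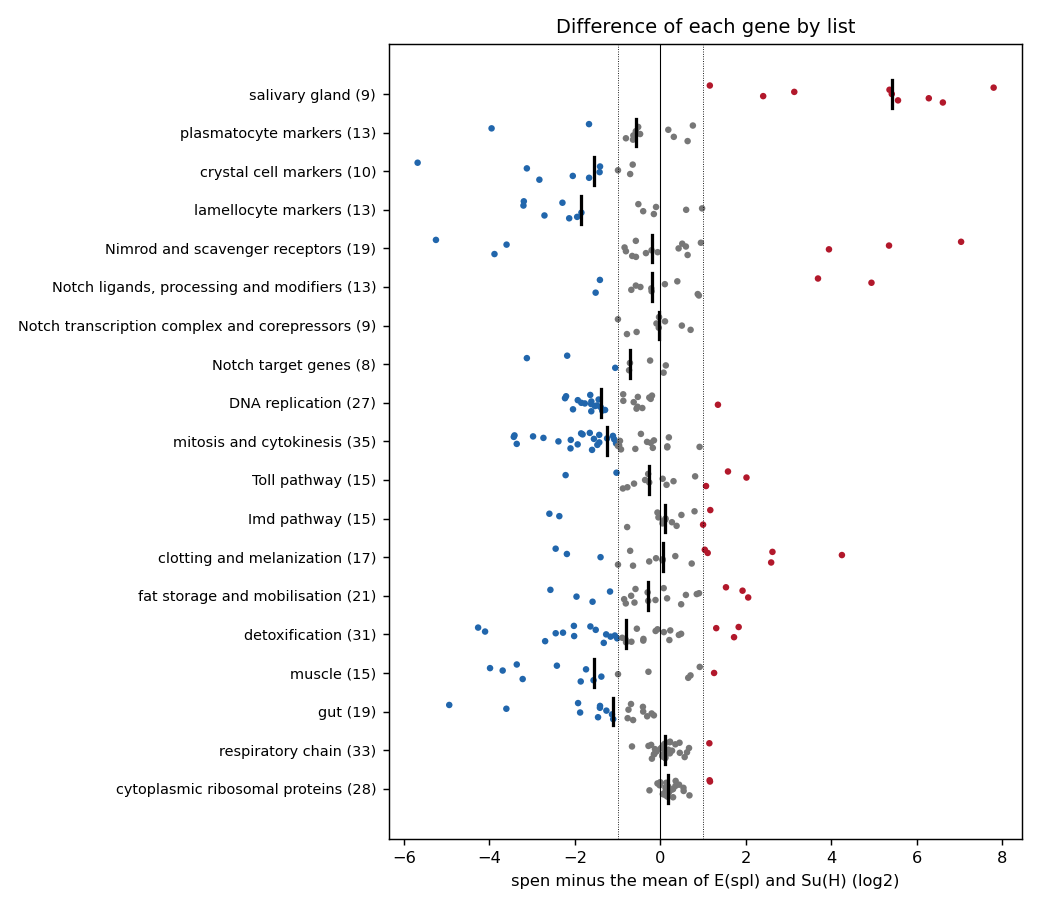
Difference of each gene (spen minus the mean of E(spl) and Su(H), log2) in 19 gene lists, with the number of genes kept in parentheses. Points are genes, red at least 2-fold higher and blue at least 2-fold lower, black bars are list medians, dotted lines mark 2-fold; salivary gland genes lie to the right, crystal cell, lamellocyte, replication, mitosis and muscle genes mostly to the left, and respiratory chain and ribosomal protein genes near 0.

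Immune pathways were mixed. In the Toll pathway 3 of 15 genes were higher and 2 lower, beside 6.99% and 9.32% of all named genes. The median was −0.26, but 0.06 with dim levels raised to background. spz, the Toll ligand, stood at 10.79 on spen, 13.13 on E(spl) and 12.88 on Su(H) (−2.22). Inside the cell, the adaptor tub stood at 11.55, 10.08 and 9.86, and the kinase pll at 11.17, 10.18 and 10.03. grass, a protease upstream of spz, was higher by 2.02. In the Imd pathway 2 of 15 were higher and 2 lower. Against both Notch arrays none was higher and 1 was lower. The 2 lower genes were the inhibitors pirk and PGRP-LF. pirk split the references, with 6.94 on spen, 11.34 on E(spl) and 7.73 on Su(H), and PGRP-LF stood at 7.44, 10.44 and 9.16. Of 8 antimicrobial peptide genes kept, 3 were lower, of which IM33 alone was lower than on both arrays.

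Of 17 clotting and melanization genes 5 were higher and 3 lower, beside 6.99% and 9.32% of all named genes. Hayan and Sp7, proteases that activate prophenoloxidase, were higher by at least 2.51 and by 2.60. Sp7 stood at 8.08 on spen, 4.80 on E(spl) and 6.18 on Su(H). Fbp1, a hexamerin receptor of the fat body, stood at 10.56, 6.04 and 6.58, with 10.96 on the control. The lectins lectin-24A and Lectin-galC1 were lower by at least 4.31-fold and at least 3.71-fold, and Tig, a matrix protein of clots, differed by −1.40. Of 13 matrix genes 3 were lower, among them loh (−2.51), a papilin-like protein, and 1 was higher, trol, the perlecan, with 0.87 at the lowest of its 3 probe sets. In the JNK pathway 15 of 17 genes stayed within 2-fold, with 1 higher and 1 lower, near the shares of all named genes. Mmp2, a matrix protease, was higher by 2.52, and puc, a phosphatase that the pathway induces, stood at 10.52 on spen, 11.90 on E(spl) and 11.87 on Su(H) (−1.37).

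Adhesion and cytoskeleton genes showed single large differences. Itgbn, an integrin beta subunit, stood at 7.23 on spen, 9.35 on E(spl) and 10.85 on Su(H) (−2.87), beside the integrin genes named above, whereas scb, an alpha subunit, was higher by 1.30. sn (fascin), which bundles actin, stood at 12.65, 9.66 and 10.76 (2.44). Of 15 genes in each list, 3 integrin and adhesion genes were higher and 3 lower, and 1 actin gene was higher and 2 lower. The other 9 and 12 stayed within 2-fold, where 6.99% of all named genes were higher and 9.32% lower. The EGFR and Ras list (15 genes) had a median of −0.01 with Dsor1, a MAP kinase kinase, higher by 1.27 and sty, a feedback inhibitor, at −1.03 over probe sets that disagreed (−1.82 and −0.25). None of 7 JAK/STAT genes passed 2-fold, and at the shares of all named genes a list of 7 would hold few.

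Respiratory chain and ribosomal protein genes mostly stayed within 2-fold. Of 33 respiratory chain genes 32 stayed within 2-fold with a median of 0.10, and of 28 cytoplasmic ribosomal protein genes 26 did, with a median of 0.18. RpS30 and RpS7 were the exceptions, each higher by 1.16. In glycolysis Ald1 (aldolase) was lower at both its probe sets, by −2.35 and −2.13, and Gapdh1 was higher by 1.24. Of 21 fat metabolism genes 3 were higher, 4 lower and 14 within 2-fold, where 6.99% of all named genes were higher and 9.32% lower. FASN1, a fatty acid synthase, stood at 9.89 on spen, 11.29 on E(spl) and 12.41 on Su(H), and FASN3, Lpin and SCAP, genes of lipid synthesis and its control, differed by −2.57, −1.58 and −1.18. foxo, a factor active in starvation, was higher by 2.06, and whd and yip2, enzymes of fatty acid breakdown, by 1.93 and 1.54.

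Detoxification genes leaned low, with 14 of 31 lower and 3 higher, beside 9.32% and 6.99% of all named genes. Of the 14, 9 were lower against both arrays, and the list median was −0.81. With dim levels raised to the Bacillus level the median was −0.55. GstD3 stood at 5.03 on spen, 9.47 on E(spl) and 8.79 on Su(H), and Cyp6a23 at 8.81, 11.02 and 11.99. The 3 that stood higher were GstE1 (1.83), Cyp28d1 (1.73) and Cyp4e2 (1.31). Metal handling genes were mixed around a median of 0.21, but with large members. MtnA, a metallothionein that binds copper, stood at 8.23, 11.89 and 12.35 (−3.89), and Ctr1A, a copper importer, at 6.91, 9.72 and 8.73 (−2.31). Mvl, an iron and manganese transporter, and Tsf3, a transferrin, were higher by 1.70 and 1.69.

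Of 14 heat shock genes 3 were higher and none lower, beside 6.99% and 9.32% of all named genes, and the median was −0.03. Hsp27 and Hsp26, small chaperones, were higher by 1.36 and 1.33 and Hsp68 by 1.11. Among 15 genes of the ecdysone response, MsrA, an ecdysone-induced methionine sulfoxide reductase, stood at 11.17 on spen, 7.34 on E(spl) and 7.45 on Su(H). ImpE3 was higher by 1.45. ftz-f1, a nuclear receptor of a later phase, was lower at both probe sets by at least 2.75-fold at the one with the larger difference. The list median was 0.21. Of the 15 genes 2 were higher, 1 was lower and 12 stayed within 2-fold, not far from the shares of all named genes.

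Markers of other tissues also moved with the comparison, and their part in the results above was not tested. Of 15 salivary gland genes on the array 9 passed the filter, and all 9 were higher on spen, beside 6.99% of all named genes. Of the 9, 8 were higher than on both Notch arrays. The median of the 9 was 5.42, or 2.41 over all 15. Sgs1 (6.58 on spen, 4.14 on E(spl) and 4.21 on Su(H)) and Sgs5bis (7.39, 4.21 and 4.29) passed the filter through the spen array alone. The filter thus fixed their direction. The mean level of the 15 was 7.61 on spen, 4.45 on E(spl), 4.88 on Su(H), 5.28 on the control and 5.15 on EGFR. The 9 were 7 Sgs genes, Eig71Ee and sage, a gland transcription factor, which stood at 8.04 on spen, 6.72 on E(spl) and 7.04 on Su(H). fkh, another gland factor, and ng1 to ng4, further glue-type genes, lay below background on all 5 arrays.

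Many muscle genes were higher on the Notch arrays than on spen, and gut genes mainly on the Su(H) array. Of 15 muscle genes kept, 9 were lower on spen, beside 9.32% of all named genes. The muscle median was −0.91 against E(spl) alone and −1.84 against Su(H) alone. Mlc1, a myosin light chain, stood at 6.11 on spen, 9.98 on E(spl) and 10.20 on Su(H), and Tm2, a tropomyosin, at 6.62, 10.10 and 10.52. On spen 9 of 18 muscle genes lay at or below background, compared with 5 for E(spl) and 4 for Su(H), and the spen median against the control was 0.00. For gut genes 10 of 19 were lower, 4 of them against both arrays, but the medians were −0.29 against E(spl) and −1.80 against Su(H). On spen 15 of 25 gut genes lay at or below background. With dim levels raised to background the gut median moved from −1.10 to −0.64. Jon65Aiv, a protease, stood at 4.59, 7.29 and 9.09. Fat body genes had 1 higher and 4 lower of 9, beside 6.99% and 9.32% of all named genes. Gnmt, a methyltransferase, stood at 4.62, 8.44 and 8.95 (a difference of at least −3.91). Of 18 testis and germ line genes kept 16 stayed within 2-fold and 2 were lower. The cuticle list had 2 higher of 8 kept and the imaginal disc list 2 of 9, beside the same 6.99%. The largest of these differences was that of obst-J, at 8.85 on spen, 3.73 on E(spl), which is background, and 5.32 on Su(H). The nervous system list, with 8 kept, had nrv3 alone past 2-fold. Lists this short would hold few such genes.

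Where the control and EGFR arrays lay was read at the 1158 probe sets of the strict count, a reading that did not enter their choice. For the 501 higher probe sets, the control was nearer to spen than to the Notch mean in 294 (58.7%), and EGFR was nearer to the Notch mean in 413 (82.4%). On a scale from the Notch mean at 0 to spen at 100, the median position was 57.8% for the control and 12.8% for EGFR. For the 657 lower probe sets, the control was nearer to spen in 407 (61.9%) and EGFR nearer to the Notch mean in 489 (74.4%), with median positions of 61.2% and 23.0%. Because the spen level helped to choose these probe sets, other arrays tend to lie short of it. The levels on the Notch arrays helped to choose them too. How far the choice shaped the gap between the control and EGFR positions was not tested.

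**Figure D5:**
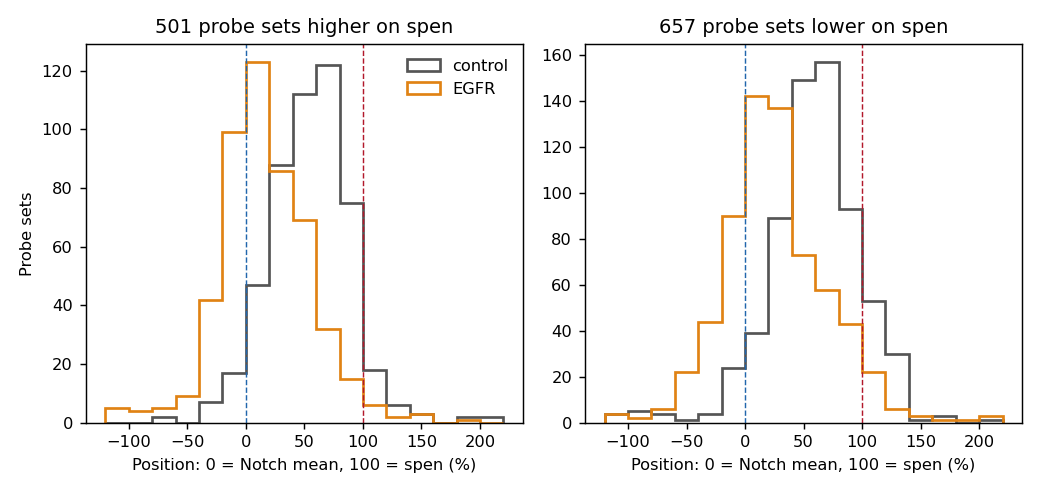
Position of the control (grey) and EGFR (orange) arrays between the mean of E(spl) and Su(H), set to 0 (blue line), and spen, set to 100 (red line), for the 501 probe sets higher on spen (left) and the 657 lower on spen (right), in bins of 20% with values beyond the ends put in the end bins. EGFR gathers near the Notch mean (medians 12.8% and 23.0%) and the control past the midpoint (57.8% and 61.2%).

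The strict probe sets were then put into classes by whether spen was also past 2-fold from the control and from EGFR in the same direction. Among the higher ones, spen was past 2-fold from the control and EGFR as well in 157 (31.3%), the class of the leading glue genes, santa-maria, NimC2 and dmGlut. It was past EGFR but not past the control in 203 (40.5%). Of these CAH7 is described above, and teq, a serine protease, stood at 12.64 on spen and 11.70 on the control with 8.52 for E(spl) and 8.16 for Su(H). Reck stood at 11.38 on spen, 11.33 on the control, 7.09 on E(spl), 8.29 on Su(H) and 7.49 on EGFR. Buffy, a Bcl-2 family gene, stood at 8.30 on spen, 7.35 on the control, 4.25 on E(spl) and 5.03 on Su(H). Past the control but not EGFR lay 15 (2.99%), among them Naprt, of NAD synthesis, and past neither lay 126 (25.1%).

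Among the lower probe sets, spen was past 2-fold from control and EGFR as well in 183 (27.9%), with CG6733, CG17109, spen, pyd3 and nrv3. It was past EGFR but not the control in 258 (39.3%). Rnf11, Zip102B and Mlc1 belonged here, and so did Idgf3, an imaginal disc growth factor, at 5.29 on spen, 6.26 on the control, 9.13 on E(spl), 8.62 on Su(H) and 7.92 on EGFR. In 53 (8.07%) spen was past the control but not past EGFR in that direction. This class held GstD3 and Jon65Aiv, and alpha-Est2, an esterase, which stood at 5.05 on spen, 5.05 on EGFR, 6.25 on the control, 8.87 on E(spl) and 8.59 on Su(H). In the last 163 (24.8%) spen was past neither the control nor EGFR in that direction, as for ninaD and the muscle gene up (5.81 on spen, 9.12 on E(spl), 9.22 on Su(H), 5.78 on the control).

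Some of these genes are neighbours in the Release 6 gene order, a feature that had no part in their choice. Over 11894 genes placed in order, 990 of which passed the strict count at 1 or more probe sets, 12 runs of 3 or more adjacent genes went the same way, 7 higher and 5 lower, with 36 genes in all. One low run joined Zip102B and Rnf11 to PMCA, the calcium pump of the plasma membrane, which stood at 4.48 on spen, 9.08 on E(spl) and 7.52 on Su(H) in the most divergent of its probe sets. All 3 genes were low on the control and high on EGFR. Another held the neprilysin-like peptidases Nepl19, Nepl20 and Nepl21, at −3.11, −3.04 and −3.55. The P450 genes Cyp6a22, Cyp6a17 and Cyp6a23 formed another low run. Cyp6a22 was at background on spen (4.09), and its difference of at least −0.51 falls short of 2-fold. In the low run of CG10513, CG10514 and CG11892 the control was the highest array, at 8.92, 9.70 and 8.89. The last low run (CG9593, alpha-Man-IIb and rec) lay at background on spen. There CG9593 differed by at least −0.61, and no bound could be given for rec. Against background, this run and the Cyp6a run were thus not 2-fold lower at every member.

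Of the high runs, Sgs5bis, Sgs5 and CG7606 stood at 7.39, 11.51 and 10.95 on spen, and hoe1, hoe2 and Sgs1 at 10.67, 6.97 and 6.58. Hsp26, Hsp27 and CG4080 differed by 1.33, 1.36 and 1.34. The drug transporter Mdr49 led a run with CG44251 and CG13321, at 3.04, 2.57 and 1.70. The others were CG31999 with yellow-h and CG1674, CG5080 with IntS14 and CG14341, and CG5167 with CG5196 and Dip-C. Several runs hold members of 1 family, such as the Sgs, Nepl and Cyp6a genes, and cross-hybridisation between their members was not tested.

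The spread within arrays could be read from genes with several probe sets, the only error at hand. Over 379 such genes the differences of 1 gene's probe sets had a pooled SD of 0.64, so that a 2-fold difference at a single probe set lies within 2 such SDs. Of their 124 probe sets past 2-fold from both Notch arrays, 96 (77.4%) had all other probe sets of the gene with the same sign, and 68 (54.8%) had all others at least 0.5 off that way. Of the 657 lower probe sets 139 lay at or below background on the spen array, and of the 501 higher ones 47 did so on both Notch arrays. Their differences are bounds.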

How the data were processed

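The 5 Affymetrix arrays came as 1 table of 18952 probe sets. Its deposited values, from 2.54 to 14.74 with none missing, were taken to be on a log2 scale. RMA and GCOS are named in the submitters' processing notes, with their roles, versions and settings not given in the sources used here. RMA sets arrays to a common distribution and can remove a shift of most genes.

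Differences were spen minus the mean of E(spl) and Su(H), with a level filter of 4.5 and a threshold of 2-fold. Genes were named from the platform annotation where a probe set had exactly 1 gene (13647 of 18952), and 13544 of these matched the Release 6 gene table. Probe sets of 1 gene were averaged. The 38 lists had 934 entries (706 with a named probe set, 571 kept). The members and lists were chosen with earlier results of these data known. Genes were named by rule: spen, the 15 largest strict differences in each direction by the probe set with the largest difference, up to 5 per list, members of the Notch, RNA-mark and blood cell lists, and genes of neighbour runs. Genes given as examples of the control and EGFR classes, and a few further list members, were chosen after their values were seen. A difference was taken against the highest of 27 Bacillus control probe sets where the dim side, or 1 of the reference arrays, did not exceed it. With 1 array per group no test was made. The counting steps were checked on simulated levels. Alternatives were scaling, reference array, level filter, fold, probe set choice and dim levels. Protein lengths were not used here, so a planned split by length was not run. No sequences are shown, and no coordinates were used beyond gene order. Python 3.11.15, numpy 2.4.6, pandas 2.3.3 and statsmodels 0.14.6 were used.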

Additional observations from a re-analysis of the deposited data

How the results depend on the processing

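Of 48 counts recomputed under another setting, 40 stayed within 1.5 times the reported count and no named gene and no list median of 2-fold or more changed sign. Medians closer to 0 did so 25 times, in 14 lists with reported medians from −0.34 to 0.21. The 8 counts that moved did so because the fold asked for was changed. At 1.5-fold, 1133 probe sets were higher and 1224 lower than on both Notch arrays, and 1494 and 1729 against their mean. At 3-fold the counts were 209 and 307, and 286 and 452. The higher share of the strict probe sets was 43.3% as deposited, 44.6% after renewed quantile scaling, 50.9% with arrays centred on their medians and 40.8% after a loess curve, so which direction was in excess depended on the scaling. The median difference ran from 0.00 to 0.12 over these scalings. Of 380 list medians 14 moved, and of 150 values of named genes 16 did. All 16 came from taking 1 reference array alone, as for ninaD (−8.51 and −1.99), Jon99Fi (−2.17 and −7.71) and Sgs3 (6.96 and 3.77). Level filters of 5.5 and 6.5 moved antimicrobial peptide (−1.42), cuticle (1.15 and 3.17) and, at 6.5, muscle medians (−2.42), since fewer genes were left. The Eig71E median was 6.61 at both filters and 0.02 without a filter, where the Notch target median was −0.03 and the salivary gland median 2.41. Against E(spl) alone the lamellocyte median was −0.87, the muscle median −0.91 and the gut median −0.29, which was −1.80 against Su(H) alone. Among the changed signs, glycolysis and the Notch ligand list stood at 0.13 and 0.03 against E(spl) alone, and antimicrobial peptides and fat metabolism both at 0.03 against Su(H) alone. Without a filter metal handling was at −0.07, and the Toll median was 0.06, as it was with dim levels raised to background. No paired analysis was possible because each group holds 1 array. The highest Bacillus control on the spen array, 4.78, was used as the lowest level read there.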

Other observations

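Of the 1158 probe sets past 2-fold from both Notch arrays, 132 belonged to no single named gene, 44 of them higher and 88 lower on spen. The largest of these stood at 5.29 on spen, 9.11 on E(spl) and 10.47 on Su(H), 22.7-fold lower, with 9.93 on EGFR and 7.46 on the control. The next was 21.3-fold higher, at 10.33 on spen, 5.70 on E(spl) and 6.13 on Su(H), with 8.57 on the control and 4.30 on EGFR.

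A gap between the references was as wide as many gaps to spen at a few genes. smp-30, which stood at 3.67 on spen and 3.99 on EGFR, was at 5.21 on E(spl) and 7.94 on Su(H). CG31248 went the other way, with 8.31 on E(spl) and 5.83 on Su(H) against 4.08 on spen.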
